A study of Mus musculus with 8 samples.

Results

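The mitosis and spindle genes described here are 40 mouse genes whose products carry a cell through the division of its chromosomes: cyclins and their kinase, mitotic kinases, the spindle checkpoint, kinetochore proteins, kinesin motors and the proteins of cytokinesis. They were taken by name, with earlier results of these data known. All 40 were found among the 20887 genes with a probe on the array, on 55 probes matched through their transcript accessions. More than 1 probe was present for 11 of the genes. The samples were dendritic cells grown from the bone marrow of female C57BL/6 mice, the common laboratory strain. Monocytes were held for 6 days with IL-4 and 10 ng/ml GM-CSF to give the immature group (4 samples, collected on day 6), and further cells prepared in this way received LPS at 50 ng/ml overnight to give the mature group (4 samples, collected on day 7). LPS, lipopolysaccharide from bacterial cell walls, is a standard agent for maturing these cells. All 8 samples thus shared GM-CSF and IL-4, no allele or transgene is named, and no cells were carried to day 7 without LPS, so LPS and the further night in culture cannot be told apart. The labels do not say whether the 4 replicates of a group came from separate animals or cultures, so the p-values measure the spread between these samples, which may be technical.

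Dividing cells make most of these transcripts in G2 and M phase. Cyclin B with Cdk1 drives entry into mitosis, Plk1 and the Aurora kinases build the spindle, and the checkpoint kinases hold back the anaphase-promoting complex until every kinetochore is attached. Cdc20 then switches that ubiquitin ligase on, the cyclins are destroyed, and the central spindle and the contractile ring part the daughter cells. The set is widely read as a measure of how much of a population is dividing. GM-CSF cultures of bone marrow start from proliferating precursors, and dendritic cells are known to leave the cell cycle as they differentiate and mature.

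All 8 arrays lay on 1 slide, where row 1 held the immature group and row 2 the LPS group, so slide row and treatment cannot be told apart. The 75th percentile of the signal was 450.1 to 490.7 intensity units in the immature group against 392.3 to 420.6 after LPS, between 47.5% and 51.3% of the spots were well above background, and no spot was saturated. Of 14 dendritic cell markers 13 were well above background on all 8 arrays, so the markers of the labelled cell type were present. The same held for 12 of 12 macrophage and monocyte, 11 of 11 neutrophil and 13 of 14 early progenitor markers. Detection thus did not single out that cell type. The level of a gene below is the log2 processed signal of its probe with the highest mean, minus the log2 of its array's 75th percentile, so 0 marks a signal equal to that percentile. Levels of different genes are not compared, because probes differ in brightness.

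After LPS the mitosis and spindle genes that could be tested were lower. Of the 40 members 37 were well above background on all 4 arrays of the immature group and could be tested, and 37 of these 37 fell at a Benjamini-Hochberg adjusted p under 0.05 in limma's moderated test over 12707 genes. None rose, also at an unadjusted p under 0.05. Among all genes tested 24.7% were called lower and 31.4% higher, 56.1% in either direction. The median log2 fold change of the 37 members was −2.07, a 4.20-fold lower signal, against 0.06 for all genes tested. A fall of at least 2-fold was found for 36 members (8.76% of all genes tested) and of at least 4-fold for 19 (2.5%). The 4 LPS arrays lay below the 4 immature arrays without overlap for 37 of 37 tested members, against 22.3% of all genes tested; the reverse, every LPS array higher, held for 0 members and for 30.1% of all genes tested. Since a member could be tested through the immature group alone, the counts cover the members measured there and not all 40. In bulk RNA, fewer dividing cells and less of these transcripts per cell cannot be told apart.

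The balance of directions over all genes depends on the scaling: 4169 genes were lower and 2615 higher with arrays scaled to their median, and 4445 and 2428 with no scaling, against 3136 and 3988 here. Those choices moved the median of all genes to −0.12 and −0.15 log2, a shift that is small beside the members' median, which was −2.25 and −2.28 under them. The number of members called lower was 37 under both.

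**Figure D1:**
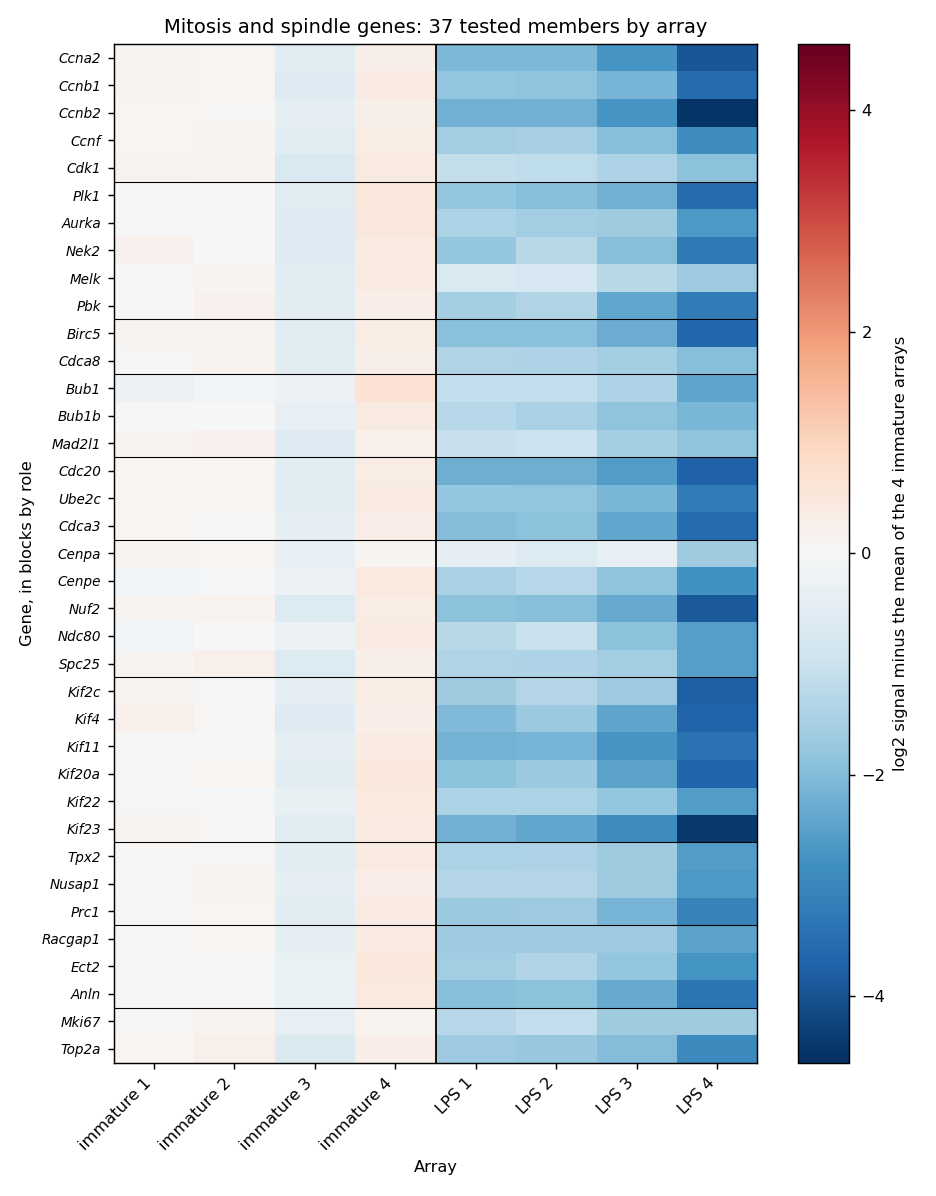
Heat map of the 37 tested members (rows, in blocks by role) on the 8 arrays (columns); colour gives the log2 signal minus the mean of the 4 immature arrays for that gene. All 4 LPS columns are blue for 37 of 37 genes, and the column of LPS replicate 4 is the darkest for 36 of them. Among the immature columns replicate 3 is the bluest for 36.

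Cyclins and Cdk1 set the timing of mitosis, and 5 of 5 fell. Ccnb2, encoding cyclin B2, stood at 4.68, 4.64, 4.13 and 4.86 on immature arrays 1 to 4 and at 2.37, 2.38, 1.87 and 0.07 on LPS arrays 1 to 4. Every LPS array was thus below the lowest immature array, by at least 1.74 log2, the widest gap among the tested members. Ccnb2 fell by 2.90 ± 0.49 log2 (SE, 4 arrays against 4; limma, adjusted p = 0.00128). Ccna2, encoding cyclin A2, which acts in S phase and early mitosis, fell by 2.69 ± 0.41. Ccnb1, encoding cyclin B1, fell by 2.33 ± 0.40 on its brightest probe, and its 2 dimmer probes fell by 2.46 and 2.47. Ccnf, encoding cyclin F, a substrate receptor of an SCF ubiquitin ligase, fell by 1.98 ± 0.31.

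Cdk1, the kinase that these cyclins activate, changed less than its partners on its brightest probe. It stood at 1.21, 1.18, 0.37 and 1.46 on the immature arrays and at −0.02, −0.10, −0.37 and −0.82 on the LPS arrays, so immature replicate 3 came within 0.39 log2 of the highest LPS array. It fell by 1.38 ± 0.26 (SE; limma adjusted p = 0.00226). Whether it differs from the falls of the cyclins was not tested. The 2 other Cdk1 probes were well above background on 2 and 0 immature arrays and on 0 LPS arrays, and with the mean of the 3 probes Cdk1 fell by 0.75.

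Mitotic kinases outside the checkpoint also fell, 5 of 5. Plk1, which controls centrosomes, spindle and cytokinesis, stood at 4.06, 4.11, 3.49 and 4.56 on the immature arrays and at 2.25, 2.11, 1.85 and 0.52 on the LPS arrays. The groups did not overlap, LPS replicate 4 was the lowest array by more than 1 log2, and Plk1 fell by 2.37 ± 0.39 (SE; limma adjusted p = 0.00112). Aurka, the Aurora kinase of the spindle poles, fell by 1.83 ± 0.31, and Nek2, a kinase that separates the centrosomes, by 2.07 ± 0.40. Nek2 was well above background on 3 of 4 LPS arrays, and it fell by 1.21 with the normexp background correction. Pbk, a MAP kinase kinase-like mitotic kinase, fell by 2.14 ± 0.40. Melk, a kinase of proliferating progenitors, had the smallest change of the 5 and fell by 1.11 ± 0.26 (adjusted p = 0.00666), with a gap of 0.18 log2 between its groups.

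The chromosomal passenger complex corrects faulty attachments at the centromere. Birc5, encoding survivin, stood at 5.80, 5.81, 5.12 and 6.01 on the immature arrays and at 3.75, 3.77, 3.41 and 2.06 on the LPS arrays. It fell by 2.44 ± 0.39 (SE; limma adjusted p = 0.000931), and its 2 other probes fell by 2.60 and 2.55. Cdca8, encoding borealin, fell by 1.58 ± 0.19 (adjusted p = 0.000203), and it was among the 3 members with a smaller spread after LPS (SD 0.26 against 0.33). Aurkb, the kinase of the complex, was dim: it was well above background on 3 of 4 immature arrays and on no LPS array, and was not tested. Its mean level was −4.12 in the immature group and −6.12 after LPS, with the LPS values not well above background.

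Spindle checkpoint genes fell less far than the cyclins, with 3 of 3 tested members called lower, although that difference was not tested. Mad2l1, encoding the checkpoint protein Mad2 that binds Cdc20, stood at 3.22, 3.28, 2.49 and 3.32 on the immature arrays and at 2.03, 2.08, 1.51 and 1.25 on the LPS arrays. It fell by 1.36 ± 0.25 (SE; limma adjusted p = 0.00185), and its dimmer probes fell by 1.79 and 1.52. Bub1 and Bub1b, whose products gather at unattached kinetochores, fell by 1.53 ± 0.33 and 1.68 ± 0.21. Ttk, encoding the Mps1 kinase that starts the checkpoint, was well above background on 3 immature arrays and no LPS array, and was not tested. Its mean level was −3.55 in the immature group and −5.36 after LPS, with the LPS values not well above background.

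The partners of the anaphase-promoting complex end mitosis. Cdc20, its activator, stood at 3.96, 3.94, 3.33 and 4.22 on the immature arrays and at 1.61, 1.62, 1.30 and 0.13 on the LPS arrays. The lowest immature array was 1.71 log2 above the highest LPS array, and Cdc20 fell by 2.70 ± 0.35 (SE; limma adjusted p = 0.000304). Ube2c, the ubiquitin-conjugating enzyme that works with the complex, fell by 2.22 ± 0.33, and by 2.59 on its other probe. Cdca3, encoding a regulator of mitotic entry, fell by 2.45 ± 0.35.

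**Figure D2:**
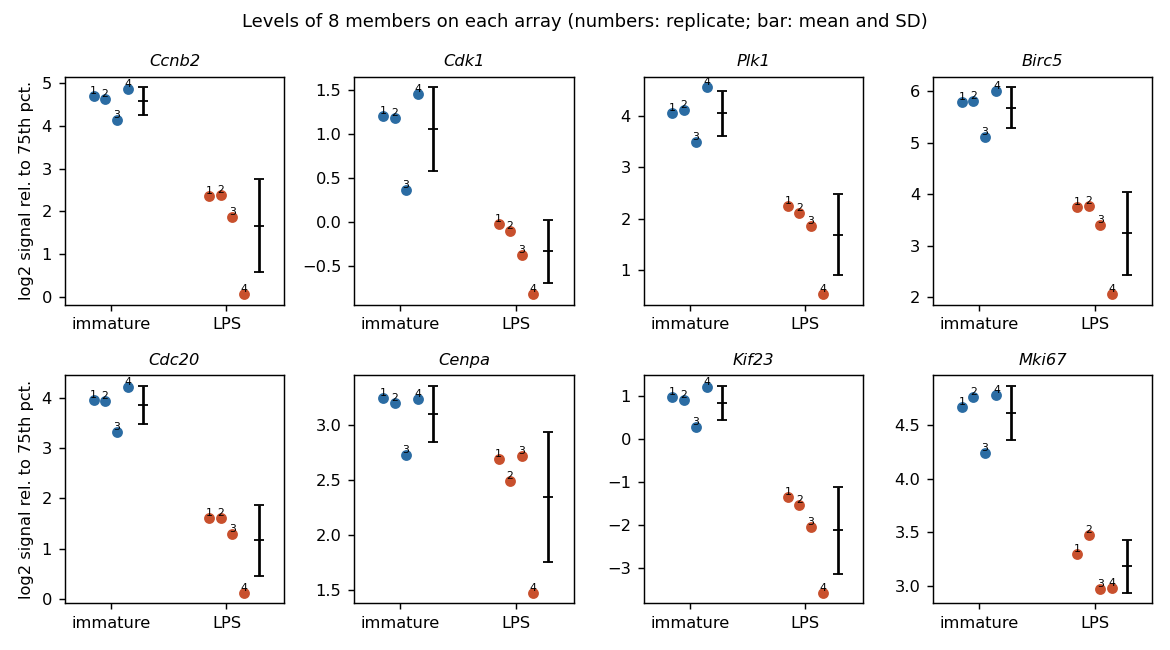
Levels of 8 members on each array, as log2 signal relative to the array's 75th percentile; points are arrays numbered by replicate and the bar beside them is the mean with its SD (n = 4). The groups do not overlap for the 8 genes shown, with the narrowest gap for Cenpa, and LPS replicate 4 lies lowest in 7 of the 8 panels.

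Kinetochore genes link centromeres to microtubules, and 5 of 5 tested members fell. Cenpa, the histone H3 variant that marks centromeres, had the smallest change of the tested members. It stood at 3.24, 3.20, 2.72 and 3.24 on the immature arrays and at 2.69, 2.49, 2.72 and 1.48 on the LPS arrays. Immature replicate 3 and LPS replicate 3 were the same to 2 decimals, and the gap between the groups was 0.0012 log2. Cenpa fell by 0.75 ± 0.28 (SE; limma adjusted p = 0.0456), the weakest call of the 37. It fell by 0.47 (adjusted p = 0.0329) without LPS replicate 4, and it did not pass without immature replicate 1, 2 or 4 or LPS replicate 2 (adjusted p = 0.0982, 0.0950, 0.0999 and 0.0699), with replicates 1 and 2 averaged (0.109) or with no filter on dim probes (0.0560).

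Cenpe, a kinetochore motor, fell by 1.87 ± 0.32. Nuf2, Ndc80 and Spc25, encoding 3 subunits of the NDC80 complex that grips microtubules, fell by 2.52 ± 0.44, 1.68 ± 0.32 and 1.74 ± 0.30. The second Nuf2 probe was above background on 0 of 8 arrays, and with the mean of the 2 probes Nuf2 fell by 1.21. Cenpf, a large kinetochore protein, was well above background on 3 immature arrays and 1 LPS array and was not tested. Its mean level was −4.03 ± 0.39 (SD, n = 4) in the immature group and −3.83 ± 1.20 after LPS, where replicate 1 stood at −2.06 and the others between −4.70 and −4.22. Its groups overlapped, and Cenpf is the 1 member of the 40 whose mean was not lower after LPS.

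Kinesin motors of the spindle fell in 6 of 6 cases and hold the largest change among the members. Kif23, the motor subunit of centralspindlin at the spindle midzone, stood at 0.98, 0.91, 0.30 and 1.22 on the immature arrays and at −1.35, −1.54, −2.04 and −3.58 on the LPS arrays. It fell by 2.98 ± 0.46 (SE; limma adjusted p = 0.000863), a 7.89-fold lower signal. Kif11, the motor that pushes spindle poles apart, fell by 2.61 ± 0.29. Kif20a, which carries the passenger complex to the midzone, fell by 2.44 ± 0.41, and Kif22, a motor on chromosome arms, by 1.80 ± 0.27. Kif4, which shapes chromosomes and the central spindle, fell by 2.47 ± 0.41, and Kif2c, a microtubule depolymerase at centromeres, by 2.10 ± 0.49 (adjusted p = 0.00698). Both were well above background on 3 of 4 LPS arrays, and they fell by 1.58 and 1.1 with the normexp background correction.

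Spindle microtubule-associated proteins fell in 3 of 3 cases. Tpx2, which activates Aurora A on microtubules, fell by 1.77 ± 0.29, Nusap1, which bundles microtubules near chromosomes, by 1.75 ± 0.30, and Prc1, which cross-links the central spindle, by 2.15 ± 0.33. The cytokinesis regulators Racgap1, the partner of Kif23, Ect2, which activates RhoA at the cell equator, and Anln, the scaffold of the contractile ring, fell by 1.87 ± 0.23, 1.88 ± 0.30 and 2.38 ± 0.32. Each of these 3 changes exceeded the SD of either group.

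The marker of proliferation Mki67, whose product coats mitotic chromosomes, had the smallest standard error. It stood at 4.67, 4.77, 4.24 and 4.78 on the immature arrays and at 3.29, 3.47, 2.97 and 2.98 on the LPS arrays, so it is the 1 tested member for which LPS replicate 4 was not the lowest. It fell by 1.43 ± 0.16 (SE; limma adjusted p = 0.000149), a 2.70-fold lower signal, and by 1.51 on its second probe. Top2a, the topoisomerase that untangles sister chromatids, stood at 2.41, 2.55, 1.66 and 2.63 on the immature arrays and at 0.63, 0.57, 0.32 and −0.63 on the LPS arrays, and fell by 2.09 ± 0.32. Of the 11 members with more than 1 probe, 9 had each probe well above background on all 4 immature arrays. Each of these probes was lower after LPS in 9 of 9. These 9 were picked through the immature group, so the count is not separate support for the fall. The dimmer Tpx2 probe was well above background on 0 LPS arrays. The others, Cdk1 and Nuf2, had probes that were not measured in the immature group. Their mean log2 differences were −0.86 and −0.005 for Cdk1 and 0.09 for Nuf2.

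**Figure D3:**
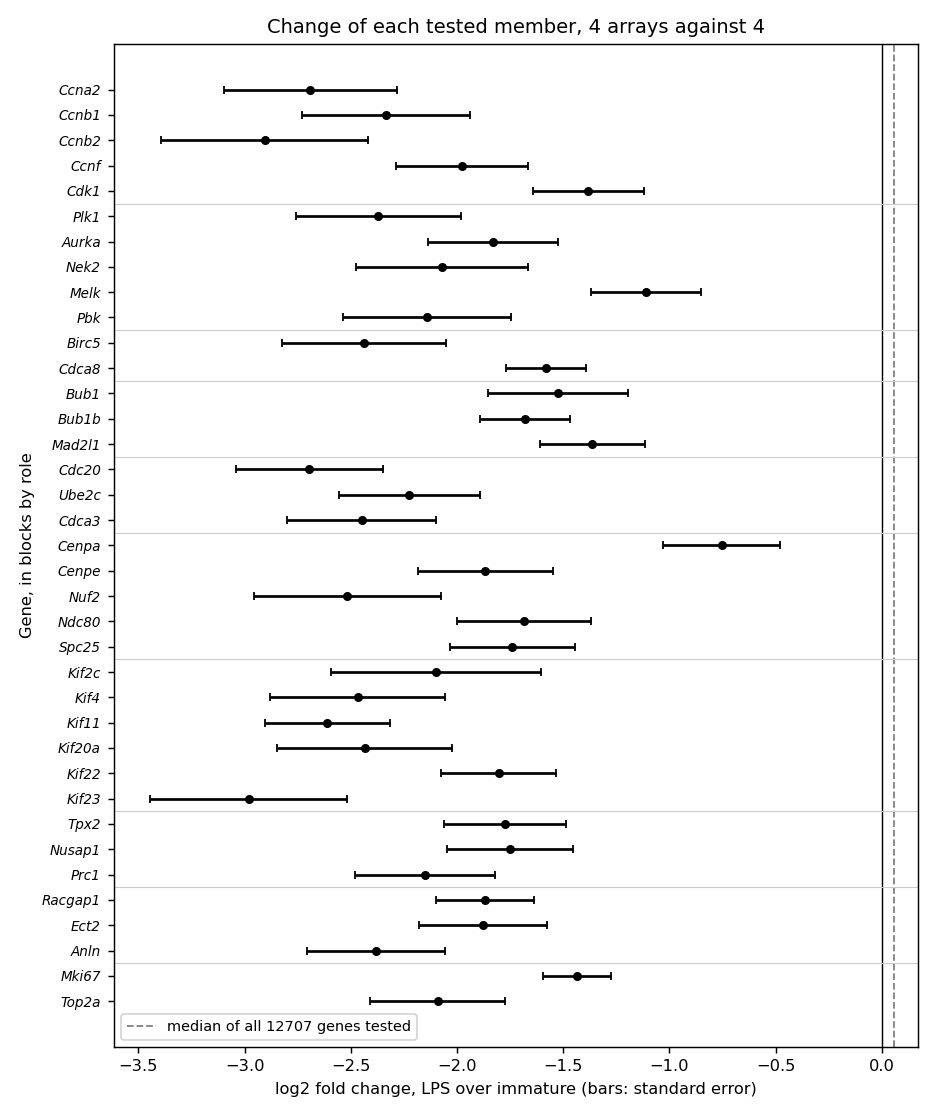
Log2 fold change of each tested member, LPS over immature, with its standard error (limma, 4 arrays against 4), in blocks by role; the dashed line is the median of all genes tested, 0.06. The 37 points run from −2.98 (Kif23) to −0.75 (Cenpa).

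The spread within each group was wider for these genes than for most. In the immature group the SD over 4 arrays ranged from 0.25 (Cenpa) to 0.48 (Cdk1) log2, with a median of 0.38, against a median of 0.18 for all genes tested. In the LPS group it ranged from 0.24 (Mki67) to 1.11 (Kif2c), with a median of 0.66 against 0.13. The SD was larger after LPS for 34 of 37 members, the exceptions being Cdk1, Cdca8 and Mki67, whereas over all genes tested the immature group had the larger SD for 61.4%. Standard errors of the log2 fold changes had a median of 0.32 for the members and 0.12 for all genes tested.

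**Figure D4:**
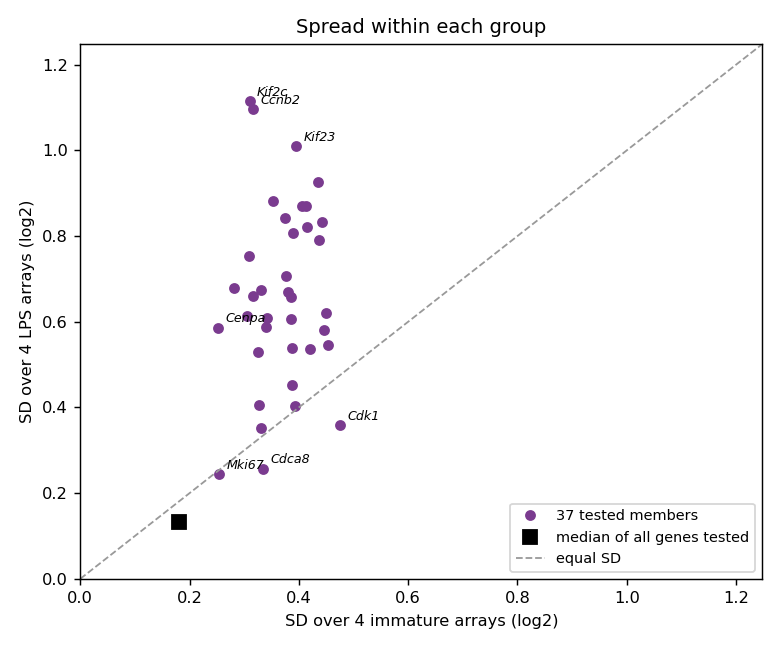
SD of the log2 level over the 4 LPS arrays against the SD over the 4 immature arrays for the 37 tested members, with the median of all genes tested as a square and a dashed line at equal SD. The members lie to the right of and above the square, and 34 of 37 lie above the line.

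The spread was not scattered from gene to gene but followed the arrays. Immature replicate 3 was the lowest immature array for 36 of 37 members, where it was the lowest for 40.05% of all genes tested, and immature replicate 4 was the highest for 36, against 15.6%. Bub1, with replicate 1 lowest at 0.71 and replicate 3 at 0.73, was the exception at the low end. Over all genes tested immature replicate 3 was also the highest immature array for 35.2%. LPS replicate 4 was the lowest LPS array for 36 of 37 members, against 31.0% of all genes tested; Mki67, with replicate 3 lowest, was the exception. Immature replicate 3 and LPS replicate 4 were lowest together for 35 members and for 10.3% of all genes tested. These counts describe members that share the same arrays and are not independent of each other.

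In size, the median member lay 0.53 log2 below the group mean on immature replicate 3 and 0.37 above it on immature replicate 4, where the median of all genes tested lay 0.02 and 0.01 below. In such signed medians genes above and below the mean cancel. Over all genes tested the median absolute difference of immature replicate 3 was 0.29 from replicate 1 and 0.30 from replicate 2. Between replicates 1 and 2 it was 0.08. The difference between immature replicates 3 and 4 ranged from 0.51 to 1.11 over the members, with a median of 0.89. After LPS the median member lay 0.91 below the group mean on replicate 4 and 0.40, 0.46 and 0.08 above it on replicates 1, 2 and 3. Replicate 2 exceeded replicate 4 by 0.49 to 2.42, with a median of 1.40. The signal of LPS replicate 4 as a whole was not low: its 75th percentile, 420.6, was the highest of the 4 LPS arrays. The median gap between the lowest immature and the highest LPS array was 1.04 log2, and it was over 1 log2 for 20 of 37 members.

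Without LPS replicate 4 the median log2 fold change of the members was −1.68 and 37 of 37 were called lower. The comparison of spreads depended on which arrays were kept. Without LPS replicate 4 the SD was larger after LPS for 3 of 37 members. The median SD was then 0.23 after LPS, against 0.38 in the immature group with its replicate 3 kept. Without immature replicate 3 the median SD of the immature group was 0.17 in place of 0.38. With both arrays left out the SD was larger after LPS for 26 of 37 members, with medians of 0.23 after LPS and 0.17 in the immature group. The median log2 fold change was then −1.87, and 37 of 37 members were called lower.

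**Figure D5:**
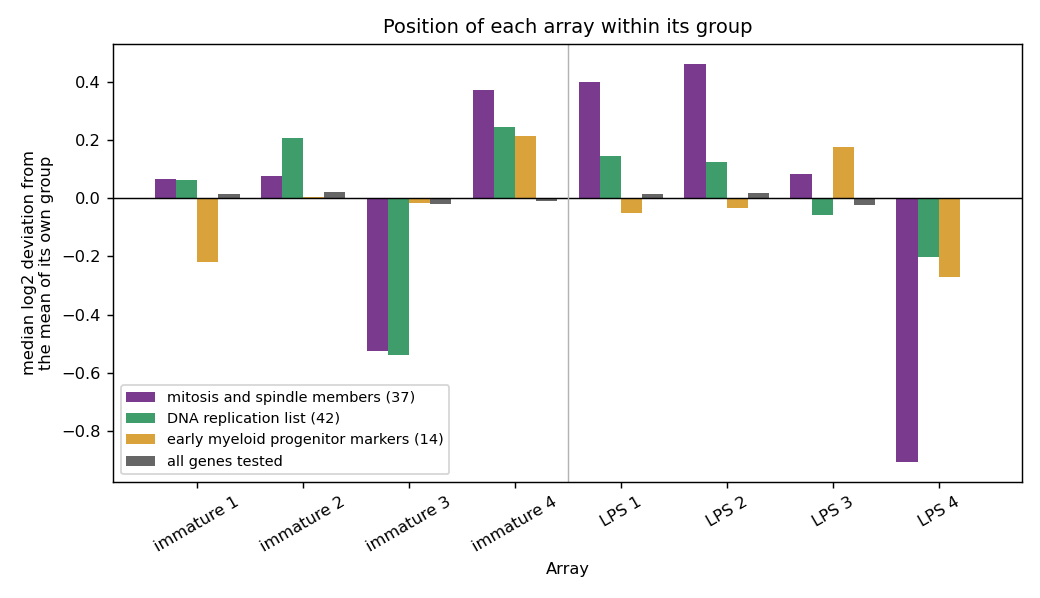
Median log2 deviation of each array from the mean of its own group, for the 37 tested members, 42 genes of DNA replication, 14 early myeloid progenitor markers and all genes tested. The members are lowest on immature replicate 3 (−0.53) and LPS replicate 4 (−0.91), while the grey bars of all genes stay within 0.03 of 0. These bars are medians of signed deviations: immature replicate 3 was the lowest immature array for 40.05% and the highest for 35.2% of all genes tested.

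Markers of other cells that such cultures can hold were read on the same arrays. A summed signal adds the probes of a list on the linear scale, so the brightest probes weigh most. A sum can therefore differ from the change of most genes in its list. The summed signal of 14 early myeloid and blood progenitor markers, in multiples of each array's 75th percentile, was 74.5 to 94.7 in the immature and 32.8 to 41.9 in the LPS group, and 8 of 14 tested genes fell, 3 rose and 3 did not pass. Cebpe, a transcription factor of granulocyte precursors, fell by 0.98 ± 0.13 (SE; limma adjusted p = 0.000323). This sum was highest on immature replicate 4 and lowest of all on LPS replicate 4, as the median member was, but immature replicate 3 (74.6) stood level with replicate 1 (74.5). For 11 neutrophil markers the sum was 898 to 1042 against 777 to 840, with 9 of 11 genes lower and 1 higher, and S100a9, a calcium-binding protein of neutrophils and monocytes, fell by 0.80 ± 0.16. The progenitor list shares Elane with the neutrophil list and Gata2 with the mast cell list. Their part in the members' fall was not tested.

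The summed signal of 12 macrophage and monocyte markers was 614 to 745 in the immature and 597 to 720 in the LPS group, with 7 lower, 2 higher and a median log2 fold change of −1.15, and Csf1r, the receptor for M-CSF, did not pass (−0.13 ± 0.08, adjusted p = 0.211). For 14 dendritic cell markers it was 1514 to 1612 and 1612 to 1877, with 4 lower and 6 higher; the class II gene H2-Eb1 did not pass (−0.22 ± 0.10, adjusted p = 0.0927). Both passed as lower with arrays scaled to their median (−0.30 and −0.39) or with no scaling (−0.34 and −0.42), Csf1r also with the mean of its probes (−0.28, adjusted p = 0.0357), and H2-Eb1 also with normexp or with arrays scaled over the probes detected on all of them. Mast cell and basophil markers summed to 11.8 to 19.3 and 22.2 to 62.4, but most of the list did not rise. Of 6 tested genes 4 fell and 1 rose, with a median log2 fold change of −1.53. The riser was Hdc, the enzyme of histamine synthesis, at 3.15 ± 0.38, while Mcpt1 and Mcpt4 were above background on no array. Erythroid markers summed to 1.81 to 2.32 and 1.81 to 2.58 with Klf1 and Alas2 above background on no array, 1 of 3 lower, and Ermap at 0.22 ± 0.13. Markers of T, natural killer and B cells summed to 4.68 to 6.95 and 4.66 to 6.12 with Ncr1, Pax5 and Ebf1 above background on no array, 1 of 5 lower, and Cd4 at 0.16 ± 0.08. Stromal markers summed to 0.56 to 0.98 and 1.03 to 1.76 with Col3a1, Pdgfra and Cdh5 above background on no array, 2 of 5 higher, and Pecam1 at −0.01 ± 0.13.

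Other genes of cell division were read from lists that hold none of the members. The lists were written with earlier results of these data known, so their counts are a description and not independent support. Of 204 such genes tested with limma 139 were lower, 12 higher and 53 did not pass. Among all genes tested 24.7% were called lower and 31.4% higher. The lists of the anaphase-promoting complex and of G1 regulators, given below, lay near that share of lower calls. Among mitotic entry regulators and factors of late cell cycle transcription 28 of 35 fell and 2 rose, with a median of −1.52 log2. E2f2, an activating E2F transcription factor, fell by 2.48 ± 0.26 (SE; adjusted p = 0.000108) and Depdc1b, a gene of proliferating cells, by 2.46 ± 0.33. Lin37, a subunit of the DREAM complex that silences cell cycle genes in resting cells, rose by 0.50 ± 0.08, and by 0.32 with arrays scaled to their median or 0.29 with no scaling.

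The remaining centromere, kinetochore and checkpoint genes had 30 of 39 lower and 1 higher, with a median of −1.16. Cenpm, a subunit of the constitutive centromere network, fell by 2.64 ± 0.32 with 3 of 4 LPS arrays well above background and by 1.5 with the normexp background correction, and Spc24, the partner of Spc25, fell by 2.46 ± 0.37. Mad2l2, a Mad2 relative known mainly from DNA repair, rose by 0.28 ± 0.07, a call lost with arrays scaled to their median (adjusted p = 0.336), to spike-ins (0.0827) or not at all (0.526). Other mitotic kinesins, spindle and cytokinesis genes had 24 of 34 lower and 0 higher, with a median of −0.91. Stmn1, encoding the tubulin-binding protein stathmin, fell by 2.54 ± 0.34 and Aspm, a spindle pole protein, by 2.53 ± 0.50.

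Condensin, cohesin and sister chromatid genes were 14 of 21 lower and 2 higher, with a median of −0.53. Esco2, the cohesin acetyltransferase of S phase, fell by 2.55 ± 0.44 with 2 of 4 LPS arrays well above background, and by 0.89 with the normexp background correction. The condensin subunit gene Ncapg was above background on no LPS array (limma adjusted p = 0.000517). Its signal was 2.08-fold lower with each LPS value raised to the lowest level well above background on its array. It was tested through the immature group alone, and its LPS values lie below background. With the normexp background correction it fell by 0.42 log2, less than that fold, so 2.08-fold is not a lower bound. Pttg1, encoding securin, the inhibitor of separase that the anaphase-promoting complex destroys, went the other way: it rose by 1.05 ± 0.07 (adjusted p = 7.41e-06), from 4.19 ± 0.04 (SD, n = 4) to 5.25 ± 0.06.

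The list of the anaphase-promoting complex, which cells need outside mitosis too, had 3 of 16 tested genes lower, 3 higher and 10 not passing, and a median of −0.08. Of the 3 lower, 2 are not subunits: Fbxo5, encoding the inhibitor Emi1, fell by 2.07 ± 0.26 and the conjugating enzyme gene Ube2s by 0.60 ± 0.13. The subunit gene Anapc15, named with Anapc2 and Anapc7 after their values were seen, fell by 0.49 (limma adjusted p = 0.0229), a call lost with replicates 1 and 2 averaged (0.0934) and when immature replicate 1 (0.0616) or 2 (0.0604) or LPS replicate 3 (0.0529) or 4 (0.0557) was left out. The 3 higher were the subunit genes Anapc16, at 0.44 ± 0.09, Anapc2 at 0.27 and Anapc7 at 0.24. These 3 calls were lost with arrays scaled to their median (adjusted p = 0.0845, 0.375 and 0.529) or with no scaling (0.123, 0.577 and 0.745). Those of Anapc2 and Anapc7 were also lost scaled to spike-ins (0.0916 and 0.105) and with replicates 1 and 2 averaged (0.0511 and 0.0945). Anapc7 also lost its call with the mean of its probes (0.150) and without LPS replicate 1 (0.0618) or 2 (0.0510).

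In the DNA replication list 35 of 42 genes fell and 1 rose, with a median of −0.99, against −2.07 for the mitosis and spindle members. Gins1, a subunit of the replicative helicase, fell by 2.01 ± 0.22 and the thymidine kinase gene Tk1 by 1.99 ± 0.26. Pola2, a subunit of DNA polymerase alpha, rose by 0.41 ± 0.12 (limma adjusted p = 0.0215), a call lost with arrays scaled to their median (0.124), to spike-ins (0.0661) or not at all (0.179), with replicates 1 and 2 averaged (0.0848) and when immature replicate 1 (0.0593), LPS replicate 1 (0.0504) or LPS replicate 3 (0.0526) was left out. The replication genes moved with the members on the arrays that stood apart, being lowest on immature replicate 3 for 39 of 42 and on LPS replicate 4 for 36 of 42. Their median deviation was −0.54 on immature replicate 3, where the members had −0.53, and −0.20 on LPS replicate 4, where the members had −0.91. Whether the 2 lists differ was not tested.

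G1 regulators were mixed, with 5 of 17 lower, 3 higher and 9 not passing, and a median of −0.10. The cyclin D1 gene Ccnd1 fell by 2.46 ± 0.44 (SE; limma adjusted p = 0.00176) and the inhibitor gene Cdkn2c by 1.52 ± 0.31. Cdkn2b, encoding the CDK4 and CDK6 inhibitor p15, rose by 1.97 ± 0.13 (adjusted p = 9.04e-06).

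Since the members moved together, their promoters were read for the sequence words known from genes of G2 and M phase: the CCAAT box, bound by NF-Y, and TTTGAA, the core of the cell cycle homology region bound by the DREAM and MuvB complexes. RefSeq promoter windows of 300 bases (GRCm38.p6, from 250 before to 50 after the start site) matched 35 of the 40 members with 37 windows, those of Ect2 and Prc1 overlapping in pairs. On either strand CCAAT was found in 78.4% of the 37 windows and in 37.4% of 32851 windows of all genes, and TTTGAA in 75.7% and 17.9%. Both words stood in 25 of the 37 windows (67.6%) and in 6.95% of all. The related word TTTAAA was found in 24.3% against 13.2%, and the E2F words TTTGGCGC, TTTCGCGC and TTTCCCGC together in 1 window, that of Cdk1 (2.70% against 1.84%). TTTAAA reads the same on both strands, and no other word searched contains it or TTTGAA. A match describes the letters of the window and shows no binding.

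The 7 stretches below run from 120 bases before the start site to 30 after it. Of these, 6 are shown as examples that carry both words. They include Cdk1, which fell by 1.38, less than the other members shown. The window of Birc5, which fell by 2.44, holds neither word, but it holds the related word TTTAAA outside the stretch shown. The stretches run 5′ to 3′ on the strand of the gene. CCAAT or its reverse complement ATTGG and TTTGAA or its reverse complement TTCAAA are in capitals.
Ccnb2 (chr9:70421525-70421674, minus strand): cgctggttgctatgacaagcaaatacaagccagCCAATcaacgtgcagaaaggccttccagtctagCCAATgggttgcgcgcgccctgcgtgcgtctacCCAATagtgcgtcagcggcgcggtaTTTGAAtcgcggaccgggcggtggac
Cdk1 (chr10:69352883-69353032, minus strand): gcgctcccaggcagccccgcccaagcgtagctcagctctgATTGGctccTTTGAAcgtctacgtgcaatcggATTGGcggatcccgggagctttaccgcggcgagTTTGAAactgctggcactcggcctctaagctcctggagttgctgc
Cdc20 (chr4:118437314-118437463, minus strand): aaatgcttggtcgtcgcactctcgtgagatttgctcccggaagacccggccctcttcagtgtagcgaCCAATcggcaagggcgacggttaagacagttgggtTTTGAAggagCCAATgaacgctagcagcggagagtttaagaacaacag
Ube2c (chr2:164769809-164769958, plus strand): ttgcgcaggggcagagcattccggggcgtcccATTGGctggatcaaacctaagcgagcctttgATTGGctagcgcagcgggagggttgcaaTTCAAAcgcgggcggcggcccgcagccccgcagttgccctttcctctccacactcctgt
Kif11 (chr19:37376262-37376411, plus strand): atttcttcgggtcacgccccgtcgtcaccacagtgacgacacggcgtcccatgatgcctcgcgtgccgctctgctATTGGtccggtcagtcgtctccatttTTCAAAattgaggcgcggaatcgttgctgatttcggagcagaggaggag
Kif23 (chr9:61946770-61946919, minus strand): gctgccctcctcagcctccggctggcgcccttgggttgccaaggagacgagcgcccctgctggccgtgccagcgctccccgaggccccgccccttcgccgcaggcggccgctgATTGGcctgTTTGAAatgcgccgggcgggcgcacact
Birc5 (chr11:117849117-117849266, plus strand): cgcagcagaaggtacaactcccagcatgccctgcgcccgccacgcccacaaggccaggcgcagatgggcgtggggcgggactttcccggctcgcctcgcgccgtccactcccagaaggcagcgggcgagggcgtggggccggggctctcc

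Ccnb2 shows the layout most clearly, with 3 CCAAT boxes spaced 33 bases apart followed by TTTGAA. Over the member windows 10 of 30 pairs of neighbouring CCAAT words on 1 strand were 30 to 35 bases apart (33.3%), against 12.0% of 3512 pairs in all windows. The median log2 fold change was −1.98 for the 21 tested members with both words in a window and −1.97 for the 12 with 1 of the words or neither, a difference that was not tested. Among tested genes outside the members 29.4% of 595 with both words and 23.9% of 9562 with 1 or neither were called lower. The shares called higher were 26.7% and 31.7%, and the median log2 fold changes −0.02 and 0.06. The other cell division genes listed above were not taken out of these groups, and their part in the difference was not tested.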

How the data were processed

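Total RNA was labelled with Cy3 by an Agilent Quick Amp kit and read on one-colour arrays with Agilent Feature Extraction 11.0.1.1, per the submitters' processing notes. The deposited processed signals are intensities from which background and spatial trend were removed, with no scaling of one array to another, per the file headers. The deposited median spot and median background intensities, used for normexp, and the flags of 0 or 1 were also read. Spots with an outlier flag (122 to 206 per array) were dropped, log2 signals of a probe's spots averaged and the array's 75th percentile subtracted. Of 55681 probes 27509 matched 1 symbol by transcript accession; the files hold no gene name column. A gene was read from its probe with the highest mean and tested where it stood well above background on each of the 4 arrays of at least 1 group (a probe of several spots counted when at least 0.5 of them were). LPS was compared with immature by lmFit and eBayes (limma 3.58.1, R 4.3.3), two-sided, with Benjamini-Hochberg adjustment over all genes and calls at 0.05. For the fold of Ncapg each dim LPS value was raised to the lowest level well above background on its array. That level is not the detection limit of the probe itself. Precision is limited by the number of arrays. The code was tested on simulated data. Figures used matplotlib 3.10.9 and Python 3.11.15.

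Replicate numbers were not taken to pair the samples: the correlations over genes of same-numbered deviations were 0.19, 0.02, 0.05 and −0.10. Replicates 1 and 2 of each group were closer to each other than other pairs: the median absolute difference over the tested members was 0.054 log2 (immature) and 0.069 (LPS) against 0.26 to 0.89 and 0.35 to 1.40. They differed by more than the noise between spots (scaled median absolute deviation 0.120 and 0.144 log2 against 0.0780 and 0.0807), which does not show that they are separate samples; they were counted as labelled, and averaging them is an alternative. The members and gene lists were chosen with earlier results of these data known. The rule names the 40 members; from each other list of the cell cycle the 2 called genes that changed most in the more frequent direction and the 1 that changed most in the opposite one; and for every marker list the gene detected on most arrays with the highest signal. Alternatives were other scalings, normexp with an offset of 50, no filter on dim probes, the mean of a gene's probes, replicate numbers as a block, each array left out and replicates 1 and 2 averaged; leaving out immature replicate 3 and LPS replicate 4 together was added after seeing the data. Array coordinates are on an older build (mm9) than the promoters of RefSeq and were not used. Of the listed genes Kif14, Cd68, Ly6c2, Azu1, Ly6g, Tpsab1, Hbb-b1 and Trac matched no probe and were not analysed here.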

Additional observations from a re-analysis of the deposited data

Results flagged for a closer look

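With 4 arrays in a group, an array was picked out when its gap to the nearest other took up most of the group's range (Dixon's 95% limit). Of 136 groups examined, for the members and the other named genes, 12 were picked out, where chance gives about 1 in 20. Immature replicate 3 was the low array in 6 of them and LPS replicate 4 in 5. On immature replicate 3, Mad2l1 stood at 2.49 (the others at 3.22 to 3.32), Cenpa at 2.72 (3.20 to 3.24), Cenpm at −1.43 (−0.58 to −0.56), Stmn1 at 5.51 (6.26 to 6.35), Fbxo5 at 1.65 (2.30 to 2.40) and Ccnd1 at 1.32 (2.94 to 3.19). On LPS replicate 4, Aurka stood at 0.77 (1.78 to 1.96), Kif2c at −5.00 (−2.93 to −2.58), Racgap1 at 0.36 (1.16 to 1.18), E2f2 at 0.37 (1.44 to 1.63) and Aspm at −3.00 (−0.86 to −0.68). The Kif2c value on that array was not well above background. Bub1 was high on immature replicate 4, at 1.66 (0.71 to 0.86). The genes share arrays, so these are not separate events.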

How the results depend on the processing

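Of the 37 tested members 36 or 37 were called lower under each of the 19 alternatives, and the call lost in 7 of them was that of Cenpa; with no filter on dim probes Aurkb and Ttk were called lower too, on LPS values below background, 38 of 40 in all, and Cenpf was not (0.19, adjusted p = 0.791). No member was called higher under any alternative. Leaving out 1 array in turn moved the members' median log2 fold change between −2.23 and −1.68 and the count of members with a larger SD after LPS between 3 and 37, the value of 3 and the median of −1.68 both coming without LPS replicate 4. Over all genes 2615 were higher with arrays scaled to their median, 2428 with no scaling and 7628 with no filter on dim probes, against 3988. Of the other cell cycle genes 5 were higher with arrays scaled to their median, 5 with no scaling and 6 scaled to spike-ins, against 12. With replicate numbers as a block the members' median stayed at −2.07, 36 members were called lower, Cenpa had an adjusted p of 0.0762, and 2979 of all genes were lower and 3627 higher; immature replicates 2 and 4 correlated best with another number. Values of 6 members moved by over 1.5 times under an alternative, each given beside its result. Genes near background have compressed folds with normexp. Where a group was not measured, mean levels are given, or for Ncapg a fold with raised LPS values.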
